A study of Mus musculus with 8 samples.

Results

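The genes described here are 9 of the 33105 in the count table, taken by symbol through their Ensembl identifiers. They are the deiodinases Dio1, Dio2 and Dio3, the transporter Slc16a10, the receptors Thra and Thrb, and the hormone-responsive genes Hr, Thrsp and Klf9. All 9 were found, and 7 had enough reads to be tested, while Dio1 and Dio3 did not. The set was chosen by the MR and Sham levels of these same libraries, with Dio2 selected on its log2 fold change and adjusted p, so the values of the 9 genes are given as a description and not as a test.

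Thyroid hormone circulates mainly as the prohormone T4, and its active form T3 can be made from T4 inside cells. Deiodinases carry out these steps: DIO1 and DIO2 can make T3, and DIO3 inactivates both hormones. T3 enters cells through membrane transporters, binds the nuclear receptors encoded by Thra and Thrb, and changes the transcription of target genes; in rodent heart it is known for raising the fast myosin and the calcium pump and lowering the slow myosin.

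Messenger RNA was sequenced from heart tissue of C57BL/6J mice in 2 groups, 4 libraries after minimally invasive surgery causing mitral regurgitation (MR, a leak of the mitral valve) and 4 libraries after a Sham procedure. A leaking valve returns blood to the atrium with each beat and loads the heart with volume, and the study asked which pathways and genes mark the resulting hypertrophy. The labels name no allele, drug, age, sex, time after surgery or part of the heart, and do not say whether libraries came from separate animals, so the spread between libraries may be partly technical.

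Totals were 42291511 to 58658094 reads in MR libraries and 43535272 to 46264464 reads in Sham libraries. Levels are given in CPM, the reads of a gene over the library total scaled to 1000000 reads, after TMM scaling for differences in library composition. Heart muscle markers (Myl2, Myl3, Myh6, Tnnt2, Tnni3 and Actc1) summed to 41242 to 47251 CPM in MR libraries and 45390 to 53424 CPM in Sham libraries, high in every library as the heart label implies. On the first principal component Sham replicate 3 scored 7.18, nearer to the MR libraries (12.6 to 22.8) than to the other Sham libraries (−32.4 to −15.7). Marker sums of another 2 cell types separated the groups. The 6 neutrophil markers summed to 3.03 to 5.87 CPM in MR libraries and 8.10 to 57.2 CPM in Sham libraries, with Sham replicates 1 and 4 at 31.1 and 57.2 CPM. Among them Csf3r overlapped between the groups (1.74 to 2.68 CPM in MR libraries and 1.56 to 3.86 CPM in Sham libraries), as did Ly6g. The 5 atrial muscle markers summed to 93.4 to 212 CPM in MR libraries and 45.6 to 70.3 CPM in Sham libraries. Most of this was Nppa (81.4 to 205 CPM in MR libraries and 41.9 to 65.7 CPM in Sham libraries). Ventricles also make Nppa under load. Without Nppa the sums were 6.78 to 13.0 CPM in MR libraries and 1.70 to 13.4 CPM in Sham libraries. They overlapped through Sham replicate 1 alone (13.4 CPM). Sham replicates 2 to 4 (1.70, 3.69 and 4.66 CPM) lay below every MR library. Skeletal fibre markers summed to 0.604 to 0.921 CPM in MR libraries and 0.545 to 1.04 CPM in Sham libraries, and thyroid gland markers to 1.66 to 2.45 CPM in MR libraries and 1.82 to 2.58 CPM in Sham libraries.

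Deiodinases are selenoproteins: an in-frame TGA codon, elsewhere a stop signal, is read as selenocysteine at the catalytic site. The coding strand around each annotated selenocysteine codon is shown because these codons define the enzymes whose transcripts are counted here. Each window holds 27 bases of the GENCODE transcript (GRCm38), with the TGA codon in capitals.
Dio1 codon 126: ggcagttgcaccTGAccttcatttctt
Dio2 codon 130: ggttcagccaccTGAccacctttcact
Dio2 codon 263: ttcagcaagagaTGAattctagattag
Dio3 codon 170: ggcagctgtaccTGAccaccgttcatg
The codons lie on chromosome 4 at 107297700 to 107297702 in Dio1 (minus strand), on chromosome 12 at 90729823 to 90729825 and 90729424 to 90729426 in Dio2 (minus strand), and on chromosome 12 at 110279739 to 110279741 in Dio3 (plus strand). Dio2 thus carries a second TGA codon near the end of its 266 coding codons.

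The Dio2 promoter is known in human and rodents as a target of cyclic AMP signalling through a cyclic AMP response element (CRE). The stretch before its RefSeq start is shown because Dio2 is the member whose level differed most between the groups. It covers the 130 bases up to the start on chr12:90739039-90739168, minus strand, GRCm38.p6, with the full CRE and the TATA box in capitals.
Dio2 promoter: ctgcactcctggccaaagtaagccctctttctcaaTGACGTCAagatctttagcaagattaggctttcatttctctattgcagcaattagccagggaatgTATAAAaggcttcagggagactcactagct
The CRE, TGACGTCA, begins 95 bases and the TATA box, TATAAA, 30 bases before the RefSeq start, which lies 600 bases upstream of the GENCODE start of Dio2. RefSeq promoters (250 bases before to 50 after a start, both strands searched) were available for 7 of the 9 members, all but Thra and Hr. The full CRE was in 1.79% of the 32851 promoters of this length and, among the members, in that of Dio2. The core site of thyroid hormone receptors, AGGTCA, was in 16.3% of promoters and, among the members, in Thrb. The DR4 element, a direct repeat of that site with a gap of 4 bases, was in 0.0152% of promoters and in 0 of the 7 members. A match describes letters and does not show that a factor binds.

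Dio2 transcripts were higher in every MR library than in any Sham library, at a low level throughout. Dio2 (ENSMUSG00000007682, protein-coding, chromosome 12, 90724552 to 90738438, GRCm38) encodes the deiodinase that makes T3 from T4 within cells. It was at 3.72, 5.63, 5.09 and 4.07 CPM in MR replicates 1 to 4, against 2.41, 2.30, 2.57 and 2.35 CPM in Sham replicates 1 to 4. The Sham libraries lay within a narrow band, while MR replicates 2 and 3 were the highest and MR replicate 1 the lowest of the MR group. The means were 4.63 ± 0.884 CPM in MR and 2.41 ± 0.116 CPM in Sham (SD, n = 4 each), a 1.92-fold difference with a 95% interval of 1.53 to 2.40 (log2 fold change 0.94, SE 0.15). The counts behind these levels were 184 to 254 reads in MR libraries and 97 to 114 reads in Sham libraries. The neutrophil marker sum separated the groups as well, as did the atrial marker sum, most of it Nppa. The part of either in the Dio2 difference was not tested. Without Sham replicates 1 and 4, the libraries highest in neutrophil markers, the Dio2 log2 fold change was 0.92 and missed the threshold (edgeR adjusted p = 0.0930). That fit had fewer Sham libraries, and over all genes 7 passed in it, against 76 with all libraries. The Sham libraries kept, replicates 2 and 3, had neutrophil marker sums of 11.0 and 8.10 CPM. Both were still above every MR library (3.03 to 5.87 CPM). The fit therefore does not separate neutrophil content from group, and nothing is read from it. In bulk tissue more cells of a type and more RNA per cell cannot be told apart.

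The value that singled out Dio2 was its adjusted p of 0.0201 in the edgeR quasi-likelihood test over 16603 genes, of which 76 passed the threshold of 0.05 (0.458%). Of these 40 were higher (0.241%) and 36 lower (0.217%) in MR, or 53 and 17 with libraries scaled by their totals alone, and the count was 3 without Sham replicate 2 and 887 without Sham replicate 3. Among the 7 members tested Dio2 was the single one called, and since it was chosen for this call the count carries no weight. Its log2 fold change was 0.83 to 1.03 when each library was left out in turn. It then missed the threshold in edgeR without MR replicate 2 (adjusted p = 0.0803), MR replicate 3 (0.0597), Sham replicate 2 (0.0737) or Sham replicate 4 (0.0819), with 7 libraries in each fit. All 4 MR values lay above all Sham values in 2 of the 7 members (Dio2 and Hr) and below them in 0; of all genes tested 4.19% lay above and 3.91% below, and nothing is read from the members' count.

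**Figure D1:**
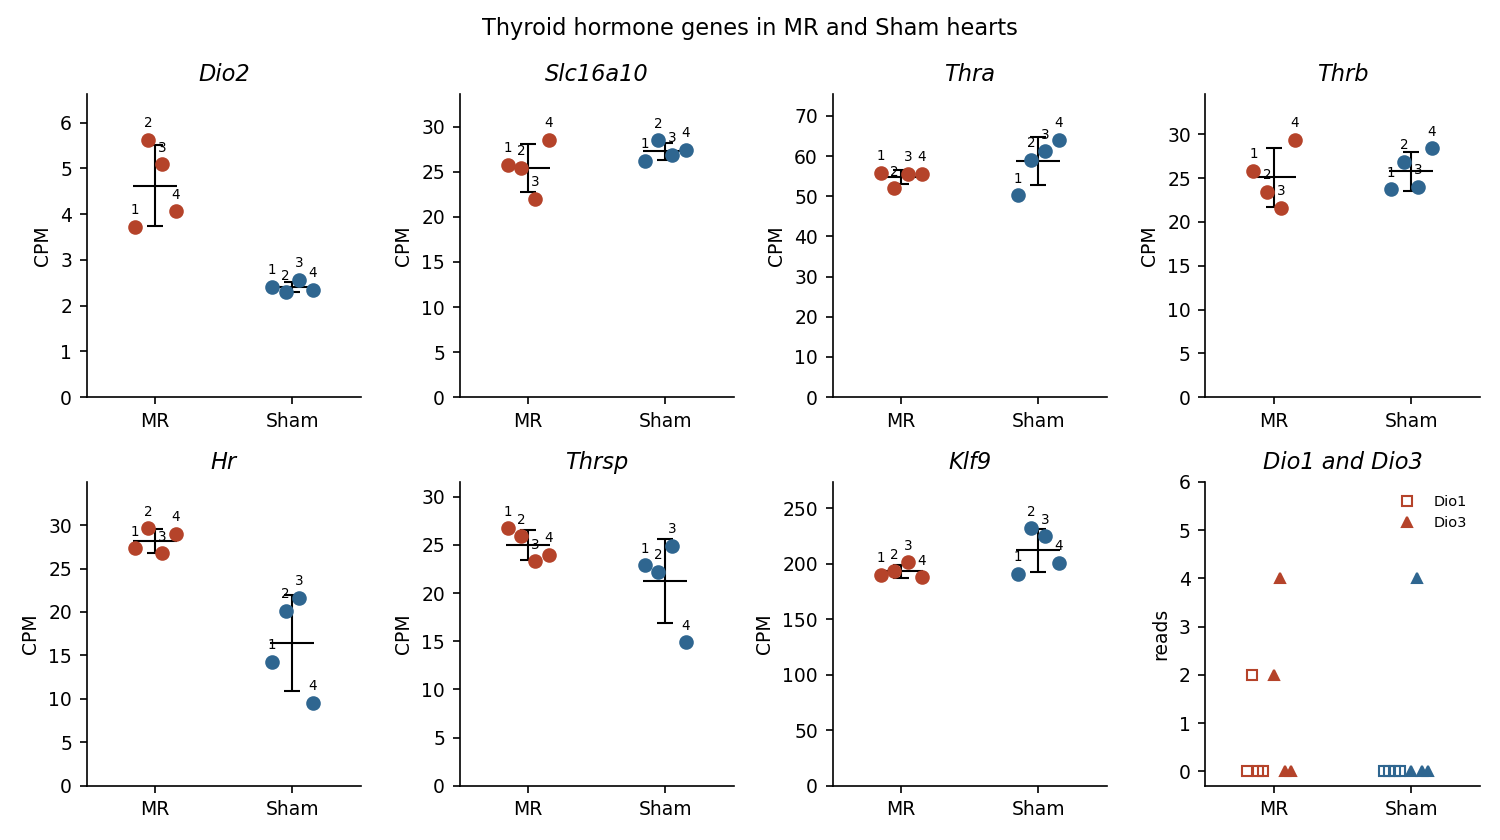
Levels of the 7 tested members in CPM and reads of Dio1 and Dio3 in each library, MR on the left and Sham on the right of each panel. Points are libraries with their replicate number, horizontal lines the means and bars the SD (n = 4); all MR points lie above all Sham points in the Dio2 and Hr panels (4.63 against 2.41 CPM and 28.2 against 16.4 CPM on average).

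The other deiodinases were nearly absent from the reads. Dio1 (chromosome 4, 107291465 to 107307169), the enzyme best known from liver, kidney and thyroid, had 2 reads in MR replicate 2 and 0 in the other 3 MR libraries and in all 4 Sham libraries. Dio3 (chromosome 12, 110279068 to 110281097), the inactivating enzyme and an imprinted gene of fetal tissues, had 2, 4, 0 and 0 reads in MR replicates 1 to 4, against 0, 4, 0 and 0 reads in Sham replicates 1 to 4. A count of 0 allows up to 3 reads, or 0.0502 to 0.0697 CPM in MR libraries and 0.0648 to 0.0710 CPM in Sham libraries, so no difference in either gene was detectable at this depth. These limits cover counting error only.

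The genomic neighbour Gm26512, a noncoding RNA on the opposite strand that shares 100 bases of exon with Dio2 (1.72% of the Dio2 exons), did not separate the groups. It averaged 0.0942 ± 0.0461 CPM in MR and 0.102 ± 0.0472 CPM in Sham (SD, n = 4 each) and was too low to be tested. No label or file says whether reads were counted by strand.

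The transporter and both receptors had levels that overlapped between the groups. Slc16a10 (chromosome 10, 40033532 to 40142258) encodes a monocarboxylate-family carrier of aromatic amino acids and T3. It was at 25.8, 25.5, 22.0 and 28.6 CPM in MR replicates 1 to 4, against 26.2, 28.5, 26.9 and 27.4 CPM in Sham replicates 1 to 4. MR replicate 3 was the lowest and MR replicate 4 the highest of all 8 libraries. The log2 fold change was −0.10 (SE 0.08, 95% interval −0.27 to 0.08).

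Thra (chromosome 11, 98740638 to 98769006) encodes the receptor isoform that predominates in heart muscle and, by alternative splicing, a variant that does not bind T3; counts per gene do not separate these products. It was at 55.9, 52.0, 55.6 and 55.6 CPM in MR replicates 1 to 4, against 50.3, 59.1, 61.2 and 64.0 CPM in Sham replicates 1 to 4. All MR values lay between Sham replicate 1 and the other Sham libraries (log2 fold change −0.10, SE 0.08, 95% interval −0.26 to 0.07). The 3' end of Thra shares 263 bases of exon (5.7% of its exons) with Nr1d1, the clock repressor REV-ERB alpha on the opposite strand, and without a stated strand setting their reads cannot be told apart there. Nr1d1 averaged 82.3 ± 6.82 CPM in MR and 70.7 ± 17.7 CPM in Sham (SD, n = 4 each), and its adjusted p was 0.517 in edgeR; without Sham replicate 3 it passed (log2 fold change 0.40, adjusted p = 0.0282).

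Thrb (chromosome 14, 17660261 to 18038090), the second receptor gene, was at 25.9, 23.5, 21.6 and 29.4 CPM in MR replicates 1 to 4, against 23.7, 26.9, 24.0 and 28.4 CPM in Sham replicates 1 to 4. The highest and the lowest of the 8 values were both in MR libraries. The log2 fold change was −0.04 (SE 0.10, 95% interval −0.25 to 0.17) and changed sign when libraries were scaled by their totals alone (0.0060). Per kilobase of exon Thra was 3.55 ± 0.449 times as high as Thrb in MR and 3.66 ± 0.302 times in Sham (SD, n = 4 each).

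The 3 hormone-responsive genes differed in how their levels stood between the groups, with Hr the one that separated them. Hr (chromosome 14, 70552212 to 70573548) encodes Hairless, a corepressor whose gene is directly induced by T3 in rodent brain. It was at 27.3, 29.6, 26.8 and 29.0 CPM in MR replicates 1 to 4, against 14.3, 20.1, 21.6 and 9.56 CPM in Sham replicates 1 to 4. Every MR library was above every Sham library, and the Sham libraries ranged more widely than the MR libraries, with Sham replicates 1 and 4 the lowest. The means were 28.2 ± 1.35 CPM in MR and 16.4 ± 5.55 CPM in Sham (SD, n = 4 each), a 1.72-fold difference with a 95% interval of 1.22 to 2.43 (log2 fold change 0.78, SE 0.22).

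Hr was not among the 76 genes called. It was called without Sham replicate 3, at a log2 fold change of 0.94, and in limma-voom with quality weights. Without Sham replicate 4 the value was 0.59, and without both Sham replicates 1 and 4 it was 0.43. Those 2 libraries also held the highest neutrophil marker sums, 31.1 and 57.2 CPM against 8.10 to 11.0 CPM in the other Sham libraries, and the part of this in the Hr difference was not tested.

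Thrsp (chromosome 7, 97412938 to 97417730) encodes Spot 14, a T3-induced protein of lipid synthesis known from liver and fat. It was at 26.7, 25.9, 23.3 and 24.0 CPM in MR replicates 1 to 4, against 22.9, 22.2, 24.9 and 14.9 CPM in Sham replicates 1 to 4. The groups overlapped through Sham replicate 3, and Sham replicate 4 was the lowest library, as it was for Hr. The log2 fold change was 0.24 (SE 0.13, 95% interval −0.04 to 0.51) and 0.10 without Sham replicate 4. Fat cell markers stayed low: leaving out Cidea, which at 19.7 to 24.9 CPM was present in all 8 libraries, the 9 others summed to 0.121 to 5.24 CPM in MR libraries and 0.248 to 2.46 CPM in Sham libraries, and the brown fat gene Ucp1 was at 0 in all libraries but MR replicate 3 (0.0465 CPM).

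Klf9 (chromosome 19, 23141226 to 23168134) encodes a Krüppel-like factor that T3 and glucocorticoids induce. It was at 190, 193, 201 and 188 CPM in MR replicates 1 to 4, against 191, 232, 225 and 201 CPM in Sham replicates 1 to 4. Sham replicates 2 and 3 were above all MR libraries and Sham replicates 1 and 4 lay among them (log2 fold change −0.14, SE 0.08, 95% interval −0.30 to 0.03). The sign of Klf9 was thus opposite to that of Hr and Thrsp, but the intervals of Klf9 and Thrsp both include 0. None of these genes was called in edgeR with all libraries.

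**Figure D2:**
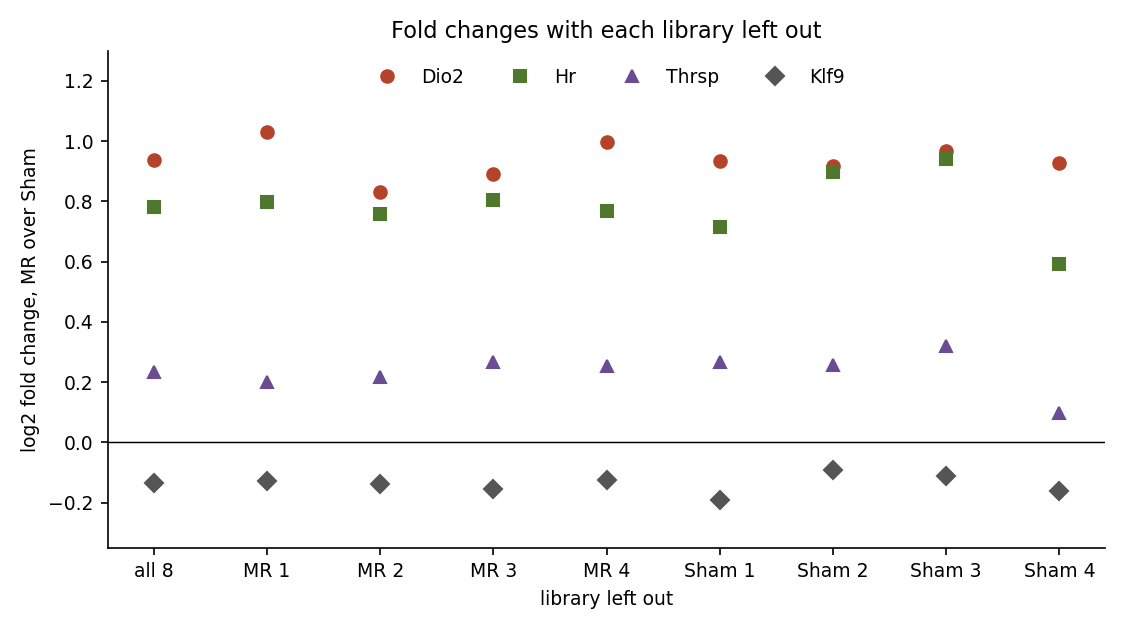
Log2 fold change of Dio2, Hr, Thrsp and Klf9, MR over Sham, from edgeR with all 8 libraries and with each library named on the axis left out. Dio2 stays between 0.83 and 1.03, Hr ranges from 0.59 without Sham replicate 4 to 0.94 without Sham replicate 3, and Klf9 is below 0 in every fit.

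Levels can be compared between genes only per length, here per kilobase of exon. The order in MR was Klf9 (40.1 ± 1.22 CPM per kilobase), Thra (11.9 ± 0.396), Thrsp (11.4 ± 0.726), Hr (4.07 ± 0.195), Slc16a10 (3.46 ± 0.363), Thrb (3.39 ± 0.453) and Dio2 (0.795 ± 0.152; SD, n = 4). In Sham it was Klf9 (44.0 ± 4.02), Thra (12.7 ± 1.29), Thrsp (9.69 ± 2.0), Slc16a10 (3.71 ± 0.133), Thrb (3.48 ± 0.307), Hr (2.37 ± 0.802) and Dio2 (0.414 ± 0.0200; SD, n = 4). The libraries of Thra and Thrsp overlapped in level in both groups, as did those of Slc16a10 and Thrb. Hr overlapped with Slc16a10 and Thrb in MR through the highest library of each, and lay below all their values in Sham. Dio2 stood below every other tested member in all libraries, and averaged over all libraries 24.6% of the genes tested lay below it, against 95.5% for Klf9. Exon lengths merge all annotated transcripts, so a gene with long unused exons appears lower.

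**Figure D3:**
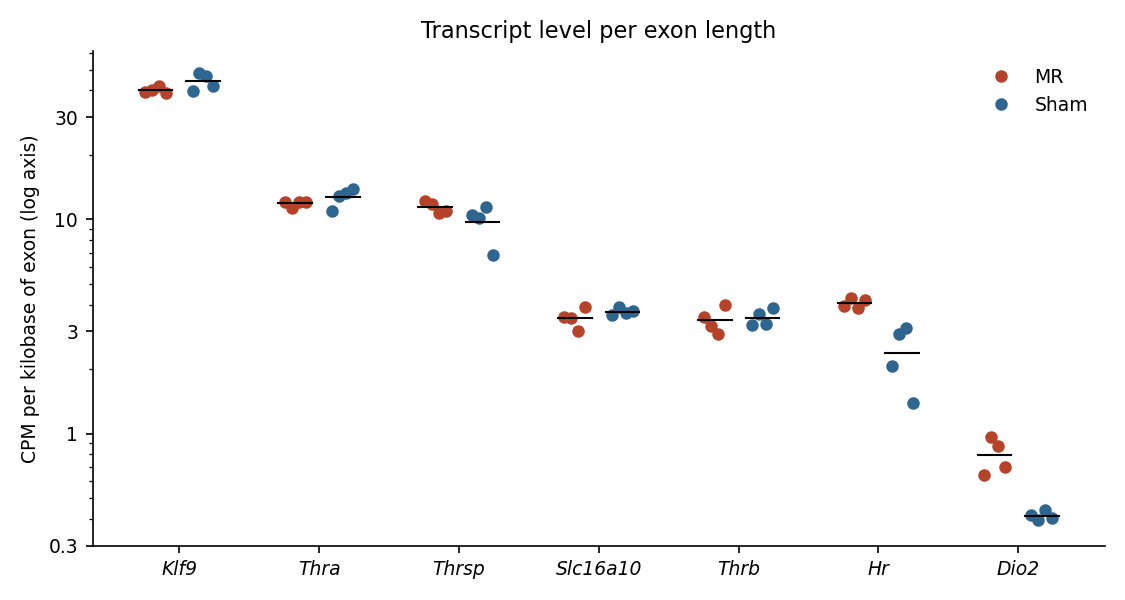
Level of each tested member in CPM per kilobase of merged exon on a log axis, with MR libraries left of Sham libraries; points are libraries and lines the group means. Klf9 is highest (40.1 in MR, 44.0 in Sham) and Dio2 lowest (0.795 in MR, 0.414 in Sham).

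The genes whose levels were most like those of Dio2 over the 8 libraries were Loxl1 (Pearson r = 0.989 of log2 CPM), Cilp (0.979), Smc2 (0.975), Zup1 (0.974) and Ltbp2 (0.968), among 12146 protein-coding genes averaging at least 1 CPM. Loxl1 encodes an elastin crosslinking enzyme, Cilp and Ltbp2 encode matrix proteins, and Smc2 a condensin subunit. All 5 were higher in every MR library than in any Sham library, so these r values largely restate the group difference, and they are descriptions in which every gene is read from the same 8 libraries at the same depth. Loxl1 was at 25.1, 31.6, 27.3 and 26.0 CPM in MR replicates 1 to 4, against 19.6, 18.4, 20.1 and 18.8 CPM in Sham replicates 1 to 4. As for Dio2, MR replicate 2 was its highest and MR replicate 1 its lowest MR library.

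With the group means removed, the closest genes were Spats2 (r = 0.984), Zfand4 (0.979), Cyb5r3 (0.963), Bmp1 (0.958) and Cygb (0.955), each of which overlapped between the groups. The SD of Dio2 was 0.884 CPM in MR and 0.116 CPM in Sham, so these r values rest mostly on the MR libraries. They are the highest among 12146 genes and are descriptions only. Cygb, which encodes cytoglobin, was at 49.9, 62.5, 60.6 and 48.7 CPM in MR replicates 1 to 4, against 52.1, 50.7, 54.0 and 52.2 CPM in Sham replicates 1 to 4. It shared with Dio2 the high values in MR replicates 2 and 3. Hr, the other member that separated the groups, had r = 0.76 with Dio2 over the 8 libraries and 0.12 with the group means removed. For the other tested members r with the group means removed was −0.67 (Thrb), −0.52 (Slc16a10), −0.23 (Thra), 0.049 (Thrsp) and 0.21 (Klf9).

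**Figure D4:**
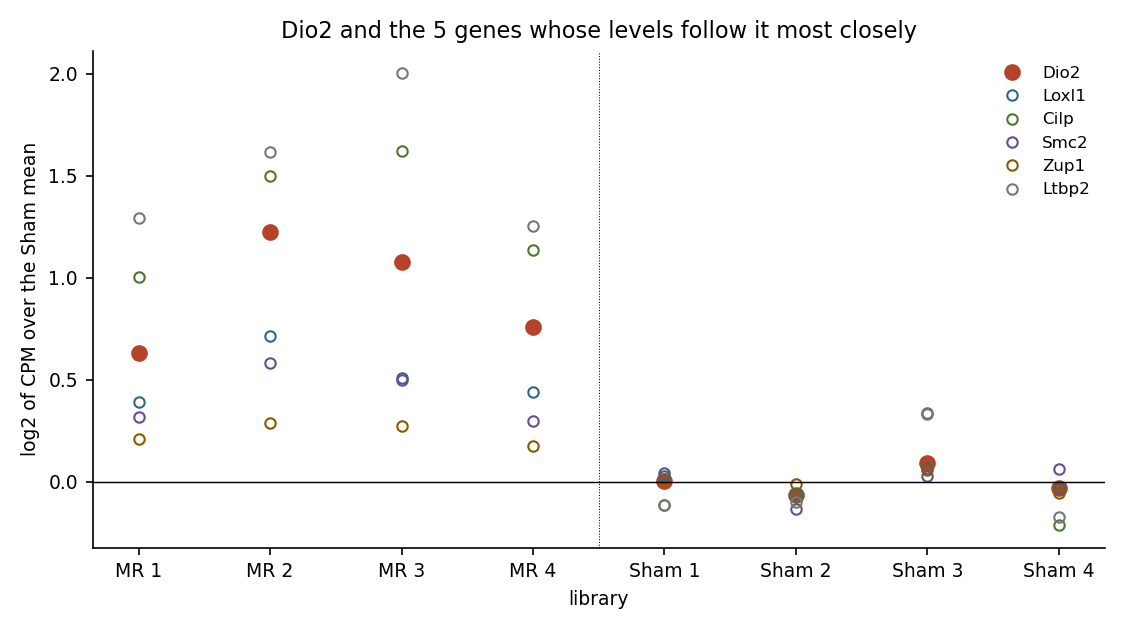
Log2 of the CPM over the Sham mean for Dio2 (filled) and the 5 protein-coding genes with the highest r with it (open), by library, MR left and Sham right of the dotted line. All 6 genes are above 0 in every MR library, and Dio2 is highest in MR replicate 2 (5.63 CPM).

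To place Dio2 in its pathway, 50 further genes of thyroid hormone transport, deiodinase synthesis, receptor function and response were examined in 5 lists, and 48 of them were tested. In the edgeR test over all genes 0 of the 48 were called higher and 0 lower, against calls for 0.458% of all genes tested. With so small a share over all genes, nothing is read from this count. At an unadjusted p under 0.05 there were 3 higher and 8 lower in MR (22.9% of the 48, against 15.1% of all genes tested). DESeq2 called 2 of the 48 and 4.14% of all genes, and limma-voom with quality weights 3 of the 48 and 2.75% of all genes. Without a filter on low counts all 50 were tested, and edgeR called 3 of them and 3.06% of all genes. Without Sham replicate 1 edgeR called 1 of the 48 and 0.551% of all genes, and without Sham replicate 3 it called 3 of the 48 and 5.28% of all genes. The DESeq2 share and that without Sham replicate 3 were thus close to those of all genes. The shares in limma-voom, without a filter and without Sham replicate 1 were above those of all genes. Each rests on 1 to 3 genes, and nothing is read from them. The MR values lay outside the Sham range in 7 of the 48 (14.6%), 1 above and 6 below, against 8.1% of all genes. The median log2 fold change was −0.06, against 0.0019 over all genes tested.

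Slc3a2, the heavy chain of the amino acid exchangers that also carry thyroid hormones, was at 23.6, 25.7, 25.2 and 24.5 CPM in MR replicates 1 to 4, against 31.1, 29.1, 29.2 and 31.2 CPM in Sham replicates 1 to 4. All MR libraries were below all Sham libraries (log2 fold change −0.28, SE 0.07, edgeR adjusted p = 0.0697). It passed in edgeR without Sham replicate 3 and without a filter (adjusted p 0.0282 and 0.0340) and in DESeq2 and limma-voom (adjusted p 0.00324 and 0.0338), and its adjusted p was highest, 0.287, without both Sham replicates 1 and 4. Its light chain partner Slc7a5 was on the other side, with 4.27 ± 0.586 CPM in MR and 3.29 ± 0.224 CPM in Sham (SD, n = 4 each; log2 fold change 0.37, edgeR adjusted p = 0.198).

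Of the 7 transport and binding genes tested 0 passed in edgeR, with a median log2 fold change of −0.02. At an unadjusted edgeR p under 0.05, 1 was higher and 1 lower (28.6%, against 15.1% of all genes tested). Ttr, a plasma carrier of T4, was at 0.299 ± 0.0839 CPM in MR and 0.214 ± 0.0686 CPM in Sham (edgeR adjusted p = 0.613). Slco1c1 and the T3-binding Crym were too low to be tested.

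Genes for making and degrading deiodinases held 0 calls among 9 in edgeR, with a median log2 fold change of −0.06. At an unadjusted edgeR p under 0.05, 1 was lower (11.1%, against 15.1% of all genes tested). Secisbp2, which lets ribosomes read the TGA codons shown above as selenocysteine, was at 22.4 ± 0.724 CPM in MR and 25.9 ± 1.58 CPM in Sham (SD, n = 4 each; log2 fold change −0.21, edgeR adjusted p = 0.169), and its groups did not overlap. Pstk, a kinase of selenocysteine synthesis, was at −0.09 (edgeR adjusted p = 0.712; 0.015 without Sham replicate 1), and Usp20, a deubiquitinase that stabilises DIO2, at −0.06 (edgeR adjusted p = 0.742) on the log2 scale.

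Receptor partners and coregulators held 0 calls among 13 in edgeR, with a median log2 fold change of 0.0035. At an unadjusted edgeR p under 0.05, 1 was lower (7.69%, against 15.1% of all genes tested). Gps2 and Hdac3, parts of a corepressor complex, had log2 fold changes of −0.18 and −0.15 (edgeR adjusted p 0.305 and 0.366).

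Genes that T3 raises in rodent heart or muscle did not pass in either direction (0 of 14 in edgeR, median log2 fold change −0.08). The log2 fold change was positive in 5 and negative in 9, against 50.4% positive over all genes tested. At an unadjusted edgeR p under 0.05, 2 were higher and 2 lower (28.6%, against 15.1% of all genes tested). Myh6, the fast myosin heavy chain, was at 20350, 17512, 17803 and 19980 CPM in MR replicates 1 to 4, against 20800, 25374, 20753 and 25127 CPM in Sham replicates 1 to 4. All MR libraries were below all Sham libraries, MR replicate 1 narrowly (log2 fold change −0.28, SE 0.09, edgeR adjusted p = 0.163). It passed in edgeR without a filter (adjusted p = 0.0492). Atp2a2 encodes the pump that returns calcium to the sarcoplasmic reticulum, and had a log2 fold change of −0.15 (edgeR adjusted p = 0.436); it is named for its role, not its p. The pacemaker channel gene Hcn4 was at 10.6 ± 0.992 CPM in MR and 8.50 ± 1.52 CPM in Sham (SD, n = 4 each; log2 fold change 0.32, edgeR adjusted p = 0.239), and the mitochondrial coactivator gene Ppargc1a had a log2 fold change of −0.24 (edgeR adjusted p = 0.202). Hcn2, a related channel gene chosen after its values were seen, passed without Sham replicate 3 (log2 fold change 0.67, adjusted p = 0.00281, against 0.44 and 0.298 with all libraries).

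Genes that T3 lowers in rodent heart were all on the negative side, with 0 of 5 past the threshold in edgeR, 3 lower at an unadjusted p under 0.05, and a median log2 fold change of −0.19; over all genes tested 50.4% were positive and 15.1% had an unadjusted p under 0.05. Heart muscle markers outside these lists had log2 fold changes of −0.30 for Myl2, −0.36 for Tnnt2 and −0.33 for Tnni3 (edgeR adjusted p 0.129, 0.128 and 0.132). Myl3 was at −0.06 and Actc1 at 0.18, and the part of these markers in the list's values was not tested. Adcy6, an adenylyl cyclase of heart muscle that makes cyclic AMP, was at 183, 179, 187 and 208 CPM in MR replicates 1 to 4, against 220, 273, 230 and 310 CPM in Sham replicates 1 to 4. Every MR library was below every Sham library (log2 fold change −0.45, SE 0.10, edgeR adjusted p = 0.0678). It passed in edgeR with Sham replicate 1 or 3 left out (adjusted p 0.0229 and 0.0151), with no filter (1.02e-05) and in DESeq2 and limma-voom (0.00382 and 0.0177). Its smallest value was −0.35 (adjusted p = 0.213), without Sham replicate 4.

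Myh7 encodes slow myosin and was at 265, 242, 244 and 270 CPM in MR replicates 1 to 4, against 320, 378, 306 and 616 CPM in Sham replicates 1 to 4. The groups did not overlap and Sham replicate 4 was far above the others (log2 fold change −0.67, SE 0.20, edgeR adjusted p = 0.168, and −0.39 without Sham replicate 4). It passed in limma-voom (adjusted p = 0.0392). Myh6 and Myh7 are similar in sequence, so both values are uncertain where reads match either. Pln, the inhibitor of the calcium pump, was at −0.17 (edgeR adjusted p = 0.315). The log2 fold changes of Myh6 and Myh7 were both negative, neither past the threshold in edgeR with its filter on low counts. The part of T3 in either was not tested.

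**Figure D5:**
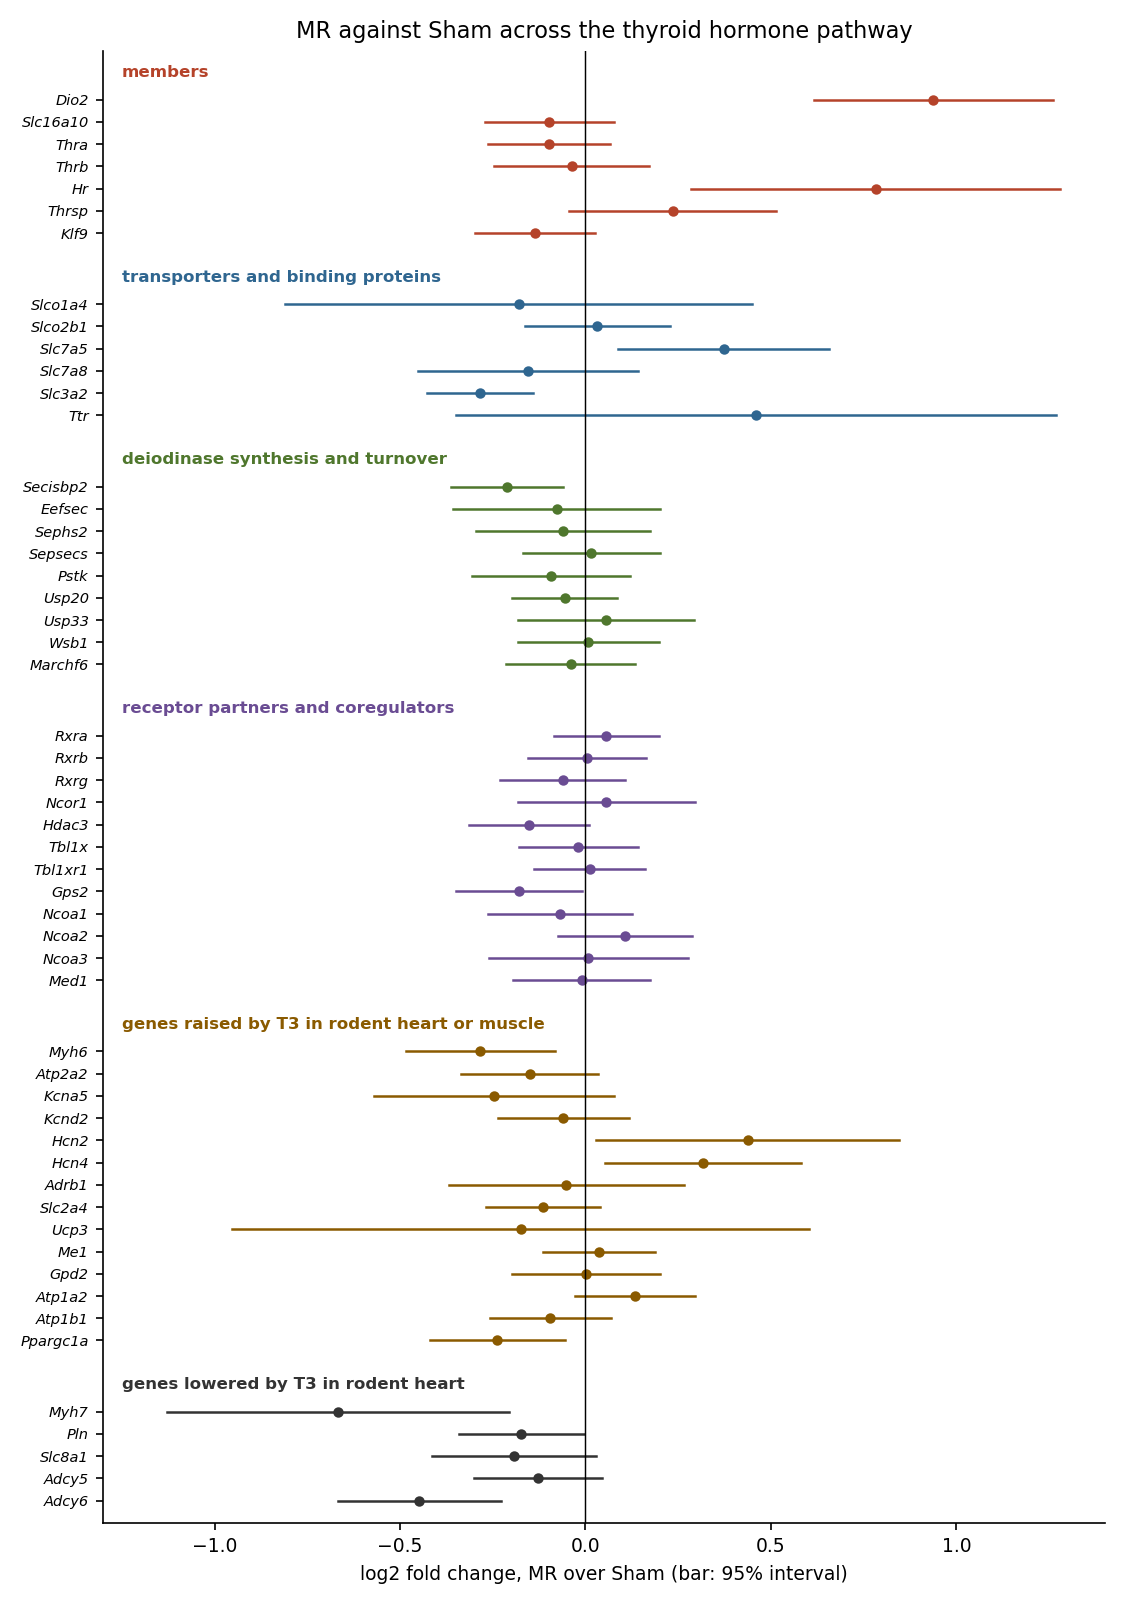
Log2 fold change, MR over Sham, with its 95% interval from edgeR for the 7 tested members and 46 of the tested genes of the 5 pathway lists, in colours by list. Dio2 (0.94) and Hr (0.78) lie to the right of all other points plotted, and the 5 genes lowered by T3 are all left of 0, from −0.67 (Myh7) to −0.13 (Adcy5).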

How the data were processed

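The table the authors deposited gives raw counts, whole numbers of reads for each Ensembl gene in each library, without normalization; what the authors did before counting is known only from the submitters' processing notes, which name HISAT2 2.0.5 and mm10 without roles. No source names the counting tool or says whether strand was used. Genes with 2 reads outnumbered genes with 1 read by 2.27 to 2.82 times, as happens where both fragment ends count separately, and limits for a count of 0 may then be too low. Symbols, coordinates and merged exon lengths came from GENCODE M21 on GRCm38, the assembly that mm10 names (32350 of 33105 identifiers matched), and promoters from RefSeq on GRCm38.p6.

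Columns were matched to libraries by title and groups taken from the treatment label. The 12 within-group pairs of libraries differed by more than counting noise (chi-square per degree of freedom 12.0 to 42.6), so none was a copy. Genes were filtered with filterByExpr (minimum count 10, minimum total 15), scaled by TMM and tested in edgeR 4.0.16 (R 4.3.3) by the quasi-likelihood test, robustly moderated, with Benjamini-Hochberg adjustment over 16603 genes. The SE of a log2 fold change is its size over the root of the F statistic. The test was also run on simulated counts in which every gene had the same dispersion. That setting leaves out the outlying libraries seen here, and nothing is read from it. Alternatives were RLE factors, library totals, no filter, DESeq2 1.42.0, a filter of 1 CPM in 4 libraries, limma-voom (limma 3.58.1) with quality weights, no robust moderation and each library left out; leaving out Sham replicates 1 and 4 together was added after seeing the data. Members, lists and the naming rule (all members, overlapping genes, the 3 lowest p per list, the 5 genes most like Dio2) were chosen with earlier results of these data known; some named results are not reported here.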

Additional observations from a re-analysis of the deposited data

Results flagged for a closer look

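In 2 of 44 groups of 4 libraries examined, 1 library stood apart from the others by Dixon's criterion, which chance meets in about 1 in 20 groups. Thra was at 52.0 CPM in MR replicate 2, against 55.6 to 55.9 CPM in the other MR libraries, which lay unusually close together. Sham replicate 1 stood apart in Pstk, at 29.9 CPM against 21.8 to 23.0 CPM in the other Sham libraries. The quality weight that limma-voom gave this library was 0.398, and those of the other 7 were 0.764 to 1.77.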

How the results depend on the processing

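Dio2 kept a positive log2 fold change in all 16 alternatives and its call in 11, and Hr kept a positive one in all 16. The 76 calls over all genes became 936 without a filter, 688 in DESeq2, 457 in limma-voom, 3 to 887 with 1 library left out (lowest when Sham replicate 2 and highest when Sham replicate 3 was left out) and 7 without both Sham replicates 1 and 4; the cause was not tested. By library totals alone 75.7% of calls were higher in MR, against 52.6%. The 0 pathway calls became 3 without a filter, 2 in DESeq2, 3 in limma-voom and 0 to 3 with 1 library left out. The log2 fold change turned sign for Thrb with library totals (0.0060) and with 1 library left out (−0.12 to 0.027), for Pstk with 1 library left out (−0.14 to 0.015) and without both Sham replicates 1 and 4 (0.021), and for Nr1d1 without both (−0.025). No paired analysis was possible because the labels give the groups no shared replicate numbers.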
